A study of Mus musculus with 40 samples.

Results

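Transient regions of H3K27ac were stretches of the genome that carried a called peak in mid-differentiation, while white preadipocytes turned into brown-like adipocytes, and almost none before and after it. The 24 H3K27ac peak lists were merged, joining any peaks that shared 1 bp or more, into 169358 regions. A region was taken as a day 3 member when at least 4 of the 6 lists of day 3, and at most 1 of the 12 lists of days 0 and 9, held a peak in it, and as a day 6 member by the same rule for day 6. This gave 497 day 3 members and 445 day 6 members, of which 69 belonged to both sets, so 873 transient regions in all. They were a small part of the mark: of 33834 regions called in at least 4 lists of day 3, 1.47% were day 3 members, and of 35776 such regions of day 6, 1.24% were day 6 members. The calls at the 4 days chose the members, so the low shares at days 0 and 9 and the high shares at the day of a set describe the choice and are not results.

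Acetylation of lysine 27 of histone H3 marks active promoters and enhancers, and enhancers come and go as a cell changes its identity. In adipogenesis, an early wave of factors that answer to hormones, among them the glucocorticoid receptor, CREB, C/EBPβ, C/EBPδ and AP-1, opens many sites, and PPARγ and C/EBPα take over later. HMGN1 and HMGN2 are nucleosome-binding proteins of chromatin that are often found at enhancers.

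The cells were primary preadipocytes from the inguinal white fat of C57BL/6 mice aged 8 to 12 weeks, either wild-type (WT) or Hmgn1-/- and Hmgn2-/- double knockout (DKO), with 3 libraries for each genotype at days 0, 3, 6 and 9. All groups were grown on collagen, and those of day 0 are labelled preadipocytes. The groups of later days were induced with insulin, dexamethasone (a glucocorticoid), IBMX (an inhibitor of phosphodiesterases, which raises cAMP), T3 and rosiglitazone (a PPARγ agonist). By the labels this medium was kept for 4 days and then replaced by insulin and T3, so day 3 fell in the induction medium and day 6 after dexamethasone, IBMX and rosiglitazone had been removed. The knockout was present in all cells of the mice, and the medium was the same for both genotypes. The paper calls the libraries of a group biological replicates, without saying whether each came from its own mouse or culture, and p-values measure the spread between these libraries.

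The lists of days 3 and 6 held between 47448 and 105511 peaks. DKO day 6 replicate 3 had 47448 peaks, against 71869 and 74867 in the other DKO libraries of that day and 98503 to 105511 in WT. Background reads under the peaks, read back from the peak caller's values, were fewest in WT day 3 replicate 3, at 4.52 per kb, while the other libraries had 8.62 to 12.9. In DKO day 0 replicate 2 the median peak was 1076 bp wide, against 313 to 376 bp elsewhere. Peaks within 1 kb of a transcript start were counted for marker genes of cell types (6 genes, 18 possible calls per group of 3 libraries, for the preadipocyte, adipocyte and macrophage lists). Preadipocyte markers had 15, 15, 16 and 18 calls in WT and 14, 15, 13 and 15 in DKO from day 0 to day 9. Of these, Pdgfra, Pdgfrb, Ly6a and Thy1 were called in 24 of 24 libraries. Adipocyte markers had 9 calls in each genotype at day 0, 12 in WT and 11 in DKO at day 3, and all 18 in each genotype from day 6 on. Adipoq and Cidec were called in all libraries of days 6 and 9 and in none of days 0 and 3, while Fabp4, Pparg and Lipe were called in 24 of 24 libraries. The 5 brown adipocyte markers had 3 of 15 possible calls in each genotype at days 0 and 3, all at Cox7a1, then 3 (WT) and 6 (DKO) at day 6, and 5 (WT) and 11 (DKO) at day 9, with Ucp1 called in 0 of 24 libraries. Macrophage markers had 18 calls at day 0 in both genotypes, 17 (WT) and 18 (DKO) at day 3, 14 in both at day 6, and 11 (WT) and 14 (DKO) at day 9, with Csf1r and Cd68 called in 24 of 24 libraries. The 5 endothelial markers had, of 15 possible calls at each day, 11, 8, 3 and 4 in WT and 12, 8, 2 and 7 in DKO from day 0 to day 9, with Tek called in 23 of 24 libraries and Tie1 in 0. In such bulk cultures, fewer cells that carry a mark and less of the mark per cell cannot be told apart.

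The strongest members are shown first, as the summit base with 100 bases on either side, on the plus strand of GRCm38, with the letters of any searched motif in capitals. They are the 3 members of each set with the highest median −log10 q, and a C/EBP and a FOX match that are described below.
Cacna1d intron, day 3, chr14:30435962-30436162: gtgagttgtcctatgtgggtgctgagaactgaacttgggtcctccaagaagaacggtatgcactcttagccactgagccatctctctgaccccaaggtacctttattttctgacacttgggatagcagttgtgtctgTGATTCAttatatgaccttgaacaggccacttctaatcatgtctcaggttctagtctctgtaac
Gfra4, day 3, chr2:131034998-131035198: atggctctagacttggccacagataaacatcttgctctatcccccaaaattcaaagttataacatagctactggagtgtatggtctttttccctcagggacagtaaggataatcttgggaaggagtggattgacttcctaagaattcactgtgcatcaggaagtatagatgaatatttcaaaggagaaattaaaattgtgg
Lpcat2 intron, day 3, chr8:92906854-92907054: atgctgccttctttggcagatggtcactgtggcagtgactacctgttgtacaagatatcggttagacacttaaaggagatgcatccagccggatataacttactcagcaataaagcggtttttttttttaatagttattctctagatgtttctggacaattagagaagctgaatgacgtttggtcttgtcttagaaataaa
Arl14ep, day 3, chr2:107005806-107006006: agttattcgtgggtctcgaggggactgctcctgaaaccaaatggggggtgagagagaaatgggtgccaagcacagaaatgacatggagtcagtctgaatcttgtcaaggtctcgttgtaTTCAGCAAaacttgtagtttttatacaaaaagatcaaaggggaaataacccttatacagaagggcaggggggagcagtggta
Pde7b intron, day 3, chr10:20677470-20677670: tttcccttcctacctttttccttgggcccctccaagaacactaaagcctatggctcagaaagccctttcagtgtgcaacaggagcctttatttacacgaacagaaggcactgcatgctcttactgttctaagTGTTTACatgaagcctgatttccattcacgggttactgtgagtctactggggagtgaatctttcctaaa
Sgo2b, day 6, chr8:63996046-63996246: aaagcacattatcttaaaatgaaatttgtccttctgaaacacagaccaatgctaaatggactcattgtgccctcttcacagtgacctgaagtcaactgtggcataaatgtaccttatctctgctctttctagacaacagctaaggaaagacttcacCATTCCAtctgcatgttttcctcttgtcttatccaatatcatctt
Slit2 nearer region, day 6, chr5:47903419-47903619: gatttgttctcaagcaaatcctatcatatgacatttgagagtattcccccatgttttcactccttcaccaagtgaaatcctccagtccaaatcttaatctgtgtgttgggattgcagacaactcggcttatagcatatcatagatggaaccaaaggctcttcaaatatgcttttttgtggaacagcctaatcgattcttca
Slit2 farther region, day 6, chr5:47902380-47902580: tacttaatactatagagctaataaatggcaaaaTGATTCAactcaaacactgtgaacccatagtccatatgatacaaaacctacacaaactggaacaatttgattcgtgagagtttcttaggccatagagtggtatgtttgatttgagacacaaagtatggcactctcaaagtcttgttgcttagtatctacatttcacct

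The strongest day 3 member (chr14:30435584-30436593) lay in an intron of Cacna1d, which encodes a subunit of a voltage-gated calcium channel, 43.5 kb upstream of the nearest start, that of the mRNA decapping gene Dcp1a. Its fold enrichment over background at day 3 was 7.71, 7.37 and 4.26 in the WT libraries and 6.90, 9.76 and 6.30 in the DKO libraries, the lowest value being that of the shallow WT library. At day 6 it was called in 3 of 3 WT libraries, at 4.21, 6.73 and 5.72, and in 1 DKO library, at 4.13. It was also called before induction, in DKO day 0 replicate 2, at a fold of 4.50 and a −log10 q of 8.83. Its printed window holds an AP-1 match. The second (chr2:131034497-131035240), 6.36 kb downstream of the start of Gfra4, a receptor of the GDNF family, was called in all 6 lists of day 3 and in 5 of 6 of day 6. Its fold at day 3 was 8.08, 8.14 and 4.72 in WT and 6.28, 7.45 and 6.36 in DKO, so the genotypes overlapped. The third (chr8:92906213-92907128), in an intron of Lpcat2, an acyltransferase of phospholipids, 1.04 kb from the nearest start, was called in 3 WT and 2 DKO libraries at day 3 and in 3 WT and 0 DKO libraries at day 6.

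Of the 10 strongest day 3 members, 8 were called in 6 of 6 lists of day 3. One of them (chr9:45113371-45113722) was called at no other day. It lay 4.18 kb upstream of the nearest start, that of the sodium channel subunit gene Scn2b, and just past the end of Jaml, whose own transient regions are described below. Its fold was 5.16, 5.29 and 6.47 in WT and 7.99, 9.31 and 9.66 in DKO libraries, without overlap, a difference seen in a single region picked for its strength and not tested. A pair of neighbouring regions lay far from any start on chromosome 1 (chr1:47214804-47215373 and chr1:47215816-47216510), 322 and 323 kb upstream of the zinc transporter gene Slc39a10, each in 6 of 6 lists of day 3. At the promoter of Sphkap, which encodes an anchoring protein of the cAMP-dependent kinase, a region of 1883 bp (chr1:83277916-83279798) was among the 10 strongest of both sets. It was called in 6 lists at day 3, in 3 WT and 1 DKO lists at day 6, and once at day 9. The others were nearest to Mctp2, Arl14ep and Lpp.

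The strongest day 6 member (chr8:63996012-63996287) lay 43.9 kb upstream of the start of the shugoshin gene Sgo2b, with a fold at day 6 of 8.50, 11.3 and 9.66 in the WT libraries and 4.36 in the 1 DKO library that called it. It was also called in DKO day 9 replicate 3, at a higher fold of 5.44. Its window holds a TEAD match, and that of the farther Slit2 region below an AP-1 match. Its median −log10 q of 19.5 was the highest of either set. The next regions formed a pair (chr5:47902276-47902957 and chr5:47903176-47904212) about 80 kb upstream of Slit2, a secreted ligand of Robo receptors. The farther one was called in 6 of 6 lists of day 6, with a fold of 8.59, 7.70 and 8.57 in WT and 5.14, 7.49 and 7.35 in DKO libraries, all DKO values below all WT values. Like the other regions named here, it was picked for its strength at day 6, and the difference was not tested. The nearer one was called in 3 WT and 2 DKO lists, with 6.88, 8.89 and 7.29 in WT and 5.80 and 6.05 in DKO. A region near the mitochondrial fission gene Fis1 (chr5:136938446-136939421) was called in 6 of 6 lists of day 6 at 7.76, 7.03 and 6.99 in WT and 8.82, 4.68 and 4.48 in DKO libraries. All 10 strongest day 6 members were called in 3 of 3 WT lists of day 6, and 7 of them in 1 DKO list. The others were those near Sphkap, Dchs2, Krr1, Prr16, Gria1 and Gpcpd1.

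Members were weak peaks. Their median −log10 q was 6.46 at day 3 and 6.30 at day 6, against 11.9 and 13.7 in the other regions of the same day (regions called in at least 4 of its 6 lists that were not members). The median number of reads at the summit was 14.5 and 15, against 21.5 and 24 in the other regions, and no member had a median over 28 reads. The lowest −log10 q in any list was near 2, so a region with no call can still carry some of the mark. The set therefore depended on where the calling threshold fell. With peaks of −log10 q of at least 5, 393 regions met the rule for day 3 and 373 for day 6, and 210 and 164 of the original members overlapped one of them. With the 20000 strongest peaks of each list, 258 and 250 regions met it, and 0 of the original members were among them.

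The edges of the rule are given by counts. Of the day 3 members, 242 (48.7%) had no call at days 0 and 9, 75 had a single call at day 0 and 180 a single call at day 9. Of the day 6 members, 195 (43.8%) had none, 21 had 1 at day 0 and 229 had 1 at day 9. At day 3, 285 members just met the rule with 4 lists, with a median −log10 q of 5.92, while 704 regions missed it with 3 lists (5.53) and 275 missed it with 2 calls at days 0 and 9 (6.29). At day 6 the corresponding numbers were 331 (6.02), 1277 (5.71) and 424 (6.23).

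The next question was whether WT and DKO cells called the members alike. The calls at a set's own day chose its members, so the values of that day are a description and were given no test. Day 3 members were called at day 3 in 89.7%, 93.0% and 59.0% of cases in the WT libraries and in 61.6%, 85.7% and 67.6% in the DKO libraries, so the groups overlapped. The means were 80.6% ± 18.8 in WT and 71.6% ± 12.6 in DKO (SD, n = 3 each), a difference of −8.92 percentage points. Day 6 members were called at day 6 in 90.3%, 91.7% and 93.5% in WT and in 71.9%, 63.8% and 18.7% in DKO libraries, and here no DKO value reached a WT value. The means were 91.8% ± 1.58 and 51.5% ± 28.7 (SD, n = 3 each), a difference of −40.4 points.

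**Figure D1:**
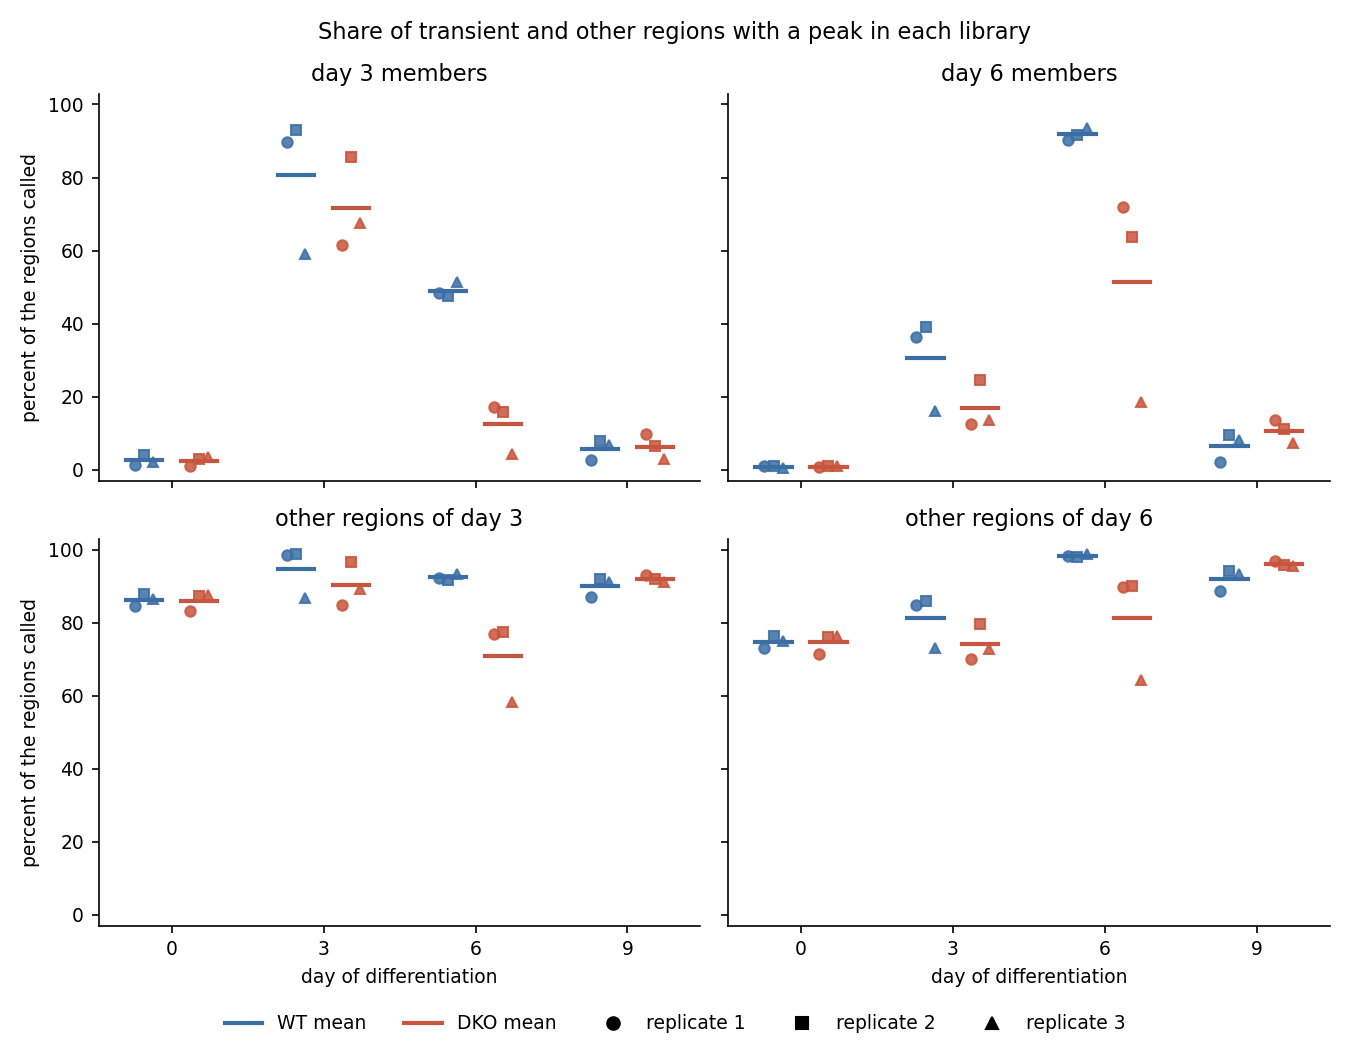
Percent of the regions that held a peak (vertical axis) in each library, by day of differentiation (horizontal axis), for day 3 members, day 6 members and the other regions of each day; points are libraries, their shape the replicate number, and lines the means of WT (blue) and DKO (red). At day 6, WT libraries called 90.3% to 93.5% of the day 6 members and DKO libraries 18.7% to 71.9%, and the other regions of day 6 also lay lower in DKO (64.4% to 90.0%) than in WT (97.9% to 98.9%).

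The other regions moved in the same direction with less amplitude. At day 6 they were called in 98.2%, 97.9% and 98.9% in WT and in 89.9%, 90.0% and 64.4% in DKO libraries. The share of day 6 members minus the share of other regions called at day 6 was −6.51 points in WT and −29.9 in DKO, a difference of −23.4 points. At day 3 the same difference was −4.43 points. Part of the size at day 6 lay in 1 library: without DKO day 6 replicate 3, the difference in day 6 members was −23.8 points and that relative to other regions −15.7. With as many peaks per list as the shortest list holds, by rank, the members were mostly different regions, and the differences were −11.6 points and, relative to other regions, −5.55. With the 20000 strongest peaks, where none of the original members remained, they were −7.33 and −3.27 points.

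The same pattern can be read region by region. Since 4 of 6 lists were needed, every member was called at least once in each genotype, and the most uneven split possible was 3 lists against 1. At day 6, 244 members were called in 3 WT and 1 DKO lists, 77 in 2 and 2, and 10 in 1 WT and 3 DKO lists. Over all regions of day 6, 16.8% were called in 3 WT and 1 DKO lists and 0.475% in the reverse. Among regions called in exactly 4 lists of day 6, the 3 WT and 1 DKO split made up 73.7% of the members and 82.5% of the other regions, so at equal numbers of calls the members were not the more uneven group. At day 3, 107 members were called in 3 WT and 1 DKO lists, 133 in 2 and 2, and 45 in 1 WT and 3 DKO lists, where the shares over all regions of day 3 were 6.44% and 1.26%. Of regions in exactly 4 lists of day 3, the split toward WT made up 37.5% of members and 42.6% of other regions, and the split toward DKO 15.8% and 7.85%. In 5 lists were 143 and 95 members (28.8% and 21.3%), against 16.2% and 21.2% of the other regions of day 3 and day 6. In all 6 lists were 69 and 19 (13.9% and 4.27%), against 69.2% and 59.0%.

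**Figure D2:**
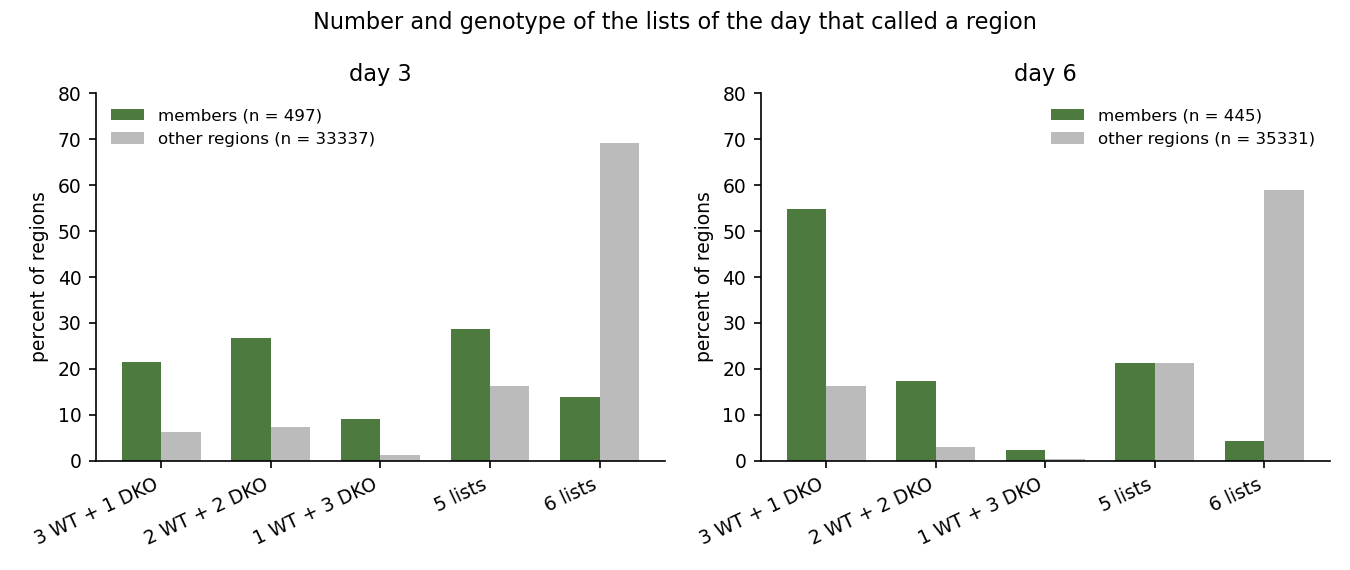
Percent of regions (vertical axis) by how many lists of the day called them and, for 4 lists, by the split between WT and DKO (horizontal axis), for members (green) and other regions (grey) of day 3 and day 6. At day 6, 54.8% of the members were called in 3 WT and 1 DKO lists, while 59.0% of the other regions were called in 6 lists.

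The median fold of day 3 members at day 3 was 5.10, 5.09 and 5.18 in WT and 4.88, 4.99 and 5.02 in DKO libraries, a difference of −0.16. Without the shallow WT library it was −0.05. The median fold of day 6 members at day 6 was 4.87, 4.96 and 4.96 in WT and 4.77, 4.53 and 4.61 in DKO libraries, a difference of −0.29. With as many peaks per list as the shortest list holds, the differences were −0.77 at day 3 and −1.45 at day 6, and with the 20000 strongest peaks −1.66 and −2.75, in sets that held few or none of the original members. The other regions of day 6 had a median fold of 8.10 ± 0.273 in WT and 6.71 ± 0.183 in DKO (SD, n = 3 each). A fold exists only where a peak was called.

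The sets met unequally at the other day. Calls at day 6 did not choose the day 3 members, and there 48.3%, 47.5% and 51.3% of them were called in the WT libraries and 17.1%, 15.7% and 4.43% in the DKO libraries, with no overlap. The difference was −36.6 points (49.0% ± 2.02 against 12.4% ± 6.95, SD, n = 3 each, exact permutation test, two-sided, p 0.1, the least that 3 against 3 libraries can give, Benjamini-Hochberg adjusted over the 2 tests 0.2), and it was between −45.0 and −26.0 points under the 13 alternative settings. The other regions of day 3 were called at day 6 in 92.4% ± 0.912 in WT and 70.9% ± 10.9 in DKO (SD, n = 3 each). Calls at day 3 did not choose the day 6 members, and there 36.4%, 39.1% and 16.0% were called in WT and 12.6%, 24.5% and 13.5% in DKO libraries, groups that overlapped (difference −13.6 points, exact permutation test, two-sided, p 0.2, adjusted 0.2). Without the shallow WT library that difference was −20.9 (exact permutation p 0.1, the smallest possible there).

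Of the 497 day 3 members, 134 were called in 0 lists of day 6, 294 in 1 to 3 and 69 (13.9%) in 4 or more, against 79.9% over all regions of day 3. In 90 day 3 members (18.1%) the day 6 calls were 3 WT and 0 DKO lists, against 8.22% of all day 3 regions. The reverse, 0 WT and 3 DKO lists, was seen in 2 day 3 members (0.402%), against 0.024% of the other regions of day 3. Among day 3 members called in 1 to 3 lists of day 6, 90 of 294 had the split toward WT. Among the other regions of day 3 called in 1 to 3 lists of day 6, 2692 of 5641 had it. At such numbers of calls the members were not the group more split toward WT. Of the 445 day 6 members, 194 (43.6%) were called in 0 lists of day 3, against 9.11% of the other regions of day 6. In 4 or more lists were 69 (15.5%), against 75.6% over all regions of day 6. In 16 (3.60%) the calls at day 3 were 3 WT and 0 DKO lists, against 1.49% of all regions of day 6. Of those called in 1 to 3 lists of day 3, that was 16 of 182 members, against 517 of 5144 other regions. Members are short and weak, which the background of all regions is not.

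Transient regions were distal. Only 23 day 3 members (4.63%) and 18 day 6 members (4.04%) had their summit within 1 kb of the start of a protein-coding transcript, against 35.8% and 34.2% of the other regions. By summit, 38.6% and 44.7% lay in introns and 51.9% and 46.5% between genes, against 24.8% and 24.1% of the other regions between genes. The median distance to a start was 30.0 kb and 32.6 kb, against 6.65 kb and 6.70 kb. Members were narrow, with a median width of 619 bp and 543 bp against 2059 bp and 1901 bp. Width is tied to the rule, since a wide merged region can collect calls of any day.

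**Figure D3:**
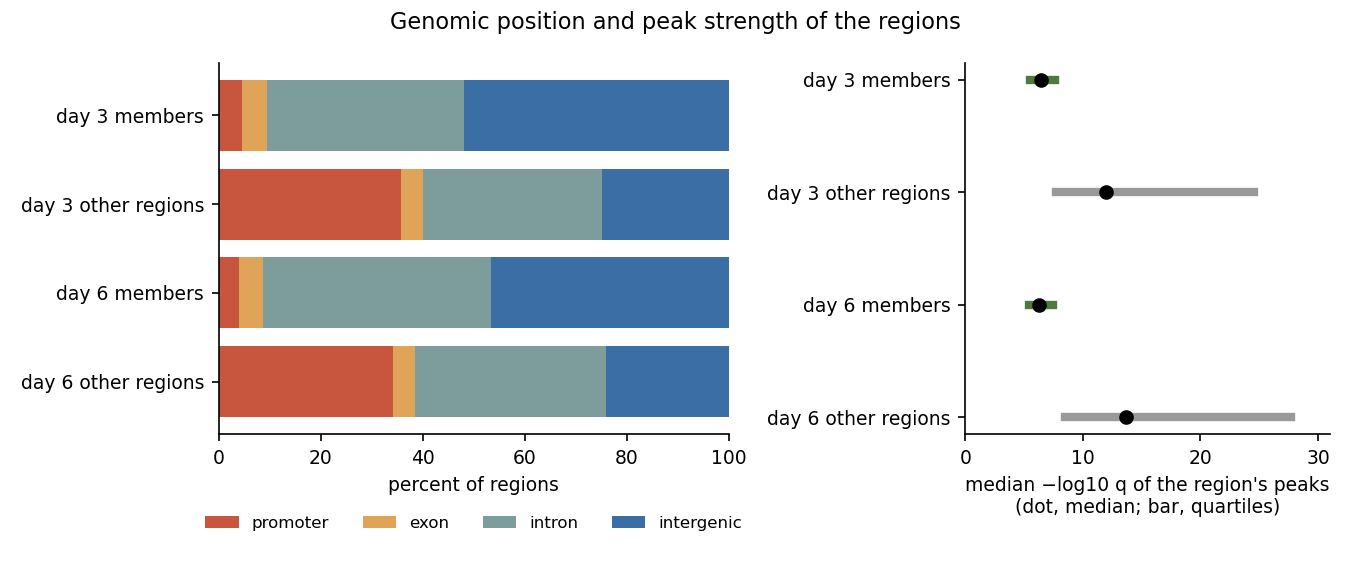
Left, percent of regions (horizontal axis) with their summit in a promoter, exon, intron or between genes; right, the median −log10 q of the peaks of a region (horizontal axis; dot, median, and bar, quartiles over regions), for members and other regions of each day. Promoters held 4.63% and 4.04% of the members and 35.8% and 34.2% of the other regions, and the members' median −log10 q was 6.46 and 6.30.

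Many members sat close to regions called before or after, a closeness that was not measured for the other regions. The median gap to a region called in at least 4 of the 12 lists of days 0 and 9 was 3.39 kb for day 3 members and 2.34 kb for day 6 members, and 34.2% and 40.2% lay within 1 kb of one. Only 54 and 50 were more than 50 kb away. Day 3 members also lay in groups: 147 (29.6%) had another day 3 member within 10 kb, against 48 (10.8%) of day 6 members. Of these, 100 and 18 had one within 1 kb. Such neighbours count as separate members because their peaks shared no base. The GC content within 100 bases of the summit had a median of 44.8% in both sets, against 48.8% and 48.3% in distal other regions. In the RefSeq sequence the base at the summit was marked as repeat in 17.9% of day 3 members and 16.4% of day 6 members, against 14.0% and 14.1% of the distal other regions.

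Most of the 15 genes with most day 3 members had more member calls at day 3 than at day 6 in both genotypes. These were Jaml, Cd38, Rnf169, Ms4a4a, Gm45716, Mrm3, Cyp2d22, Tenm4, Xrn2 and Msn. At Pde7b, Bmper, Fgf10, Fxyd6 and Frmd4b, calls at day 6 were more in WT and fewer in DKO than at day 3. This division was made after the values were seen. Day 3 members were chosen on calls at day 3, so more calls there largely follow from the rule. Jaml, which encodes an adhesion receptor of leukocytes, had 5 day 3 members within 11.5 kb (chr9:45084141-45095614), in its promoter and introns. The WT libraries called 4, 5 and 5 of them at day 3 and 2, 1 and 1 at day 6. The DKO libraries called 5, 5 and 5 at day 3 and 0, 5 and 0 at day 6. All 3 DKO libraries thus held the whole group at day 3, and DKO day 6 replicate 2 alone kept it. Cd38, an enzyme that consumes NAD on the surface of immune and other cells, had 4 day 3 members, called 4, 3 and 2 times in WT and 4, 3 and 4 times in DKO at day 3, and 0 times at days 0 and 9. Rnf169, a protein of the DNA break response, had 5 in its introns, called 5, 5 and 2 times in WT and 5, 4 and 5 times in DKO libraries. Ms4a4a, a membrane protein of macrophages, had 4, called 3, 4 and 2 times in WT and 3, 4 and 3 times in DKO at day 3. At day 6 the calls at Ms4a4a were 0, 1 and 1 in WT and 2, 3 and 3 in DKO libraries, so there the calls went on in DKO.

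The 23 day 3 members at promoters, named after their values were seen, included those of the hyaluronan receptor gene Lyve1 (2 regions), the formyl peptide receptor gene Fpr2, the chemokine gene Ccl6, the cytokine gene Csf3 and the receptor gene Il15ra. They also included Sphkap, Heatr1 (2 regions), Galnt16, Foxf1, Hgsnat, Atp1b2, Dtnb, Mdga1, Slc43a2, Hsh2d, Klf5 and Pde10a (2 regions). Jaml, Ms4a4a, Fpr2 and Ccl6 are known from leukocytes, and beside them stand the macrophage markers, with 18 of 18 possible calls in both genotypes at day 0, when by the rule these regions had at most 1 call, then 17 and 18 at day 3 and 14 and 14 at day 6. Their part in the result was not tested.

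At the second group of genes the WT calls went on to day 6. Pde7b, a phosphodiesterase that breaks down cAMP, had the most transient regions, 5 day 3 and 5 day 6 members with 1 in both sets, spread over 199 kb of its introns (chr10:20479242-20678223). At day 3 the WT libraries called 6, 7 and 3 of these 9 regions and the DKO libraries 2, 5 and 6. At day 6 they called 9, 9 and 9 in WT and 3, 3 and 2 in DKO, and at day 9, 1, 0 and 0 in WT and 0, 3 and 1 in DKO libraries. One of the Pde7b regions holds the FOX match printed above. Bmper, a secreted protein that binds BMPs, had 7 regions, called 5, 4 and 4 times in WT and 3, 4 and 3 times in DKO at day 3, and 6, 7 and 6 against 3, 1 and 0 at day 6. Fgf10, a growth factor needed for the formation of white fat, had 5, called 4, 5 and 2 times in WT and 3, 3 and 3 times in DKO at day 3, and 3, 4 and 5 against 3, 2 and 0 at day 6. Fxyd6, a modulator of the sodium pump, had 3 neighbouring regions, called 3, 2 and 2 times in WT and 3, 3 and 3 times in DKO at day 3, and 3, 3 and 2 against 0, 0 and 0 at day 6. Members were chosen on these calls, and the lower DKO counts at day 6 go with the lower number of peaks in those lists, whose part was not tested.

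**Figure D4:**
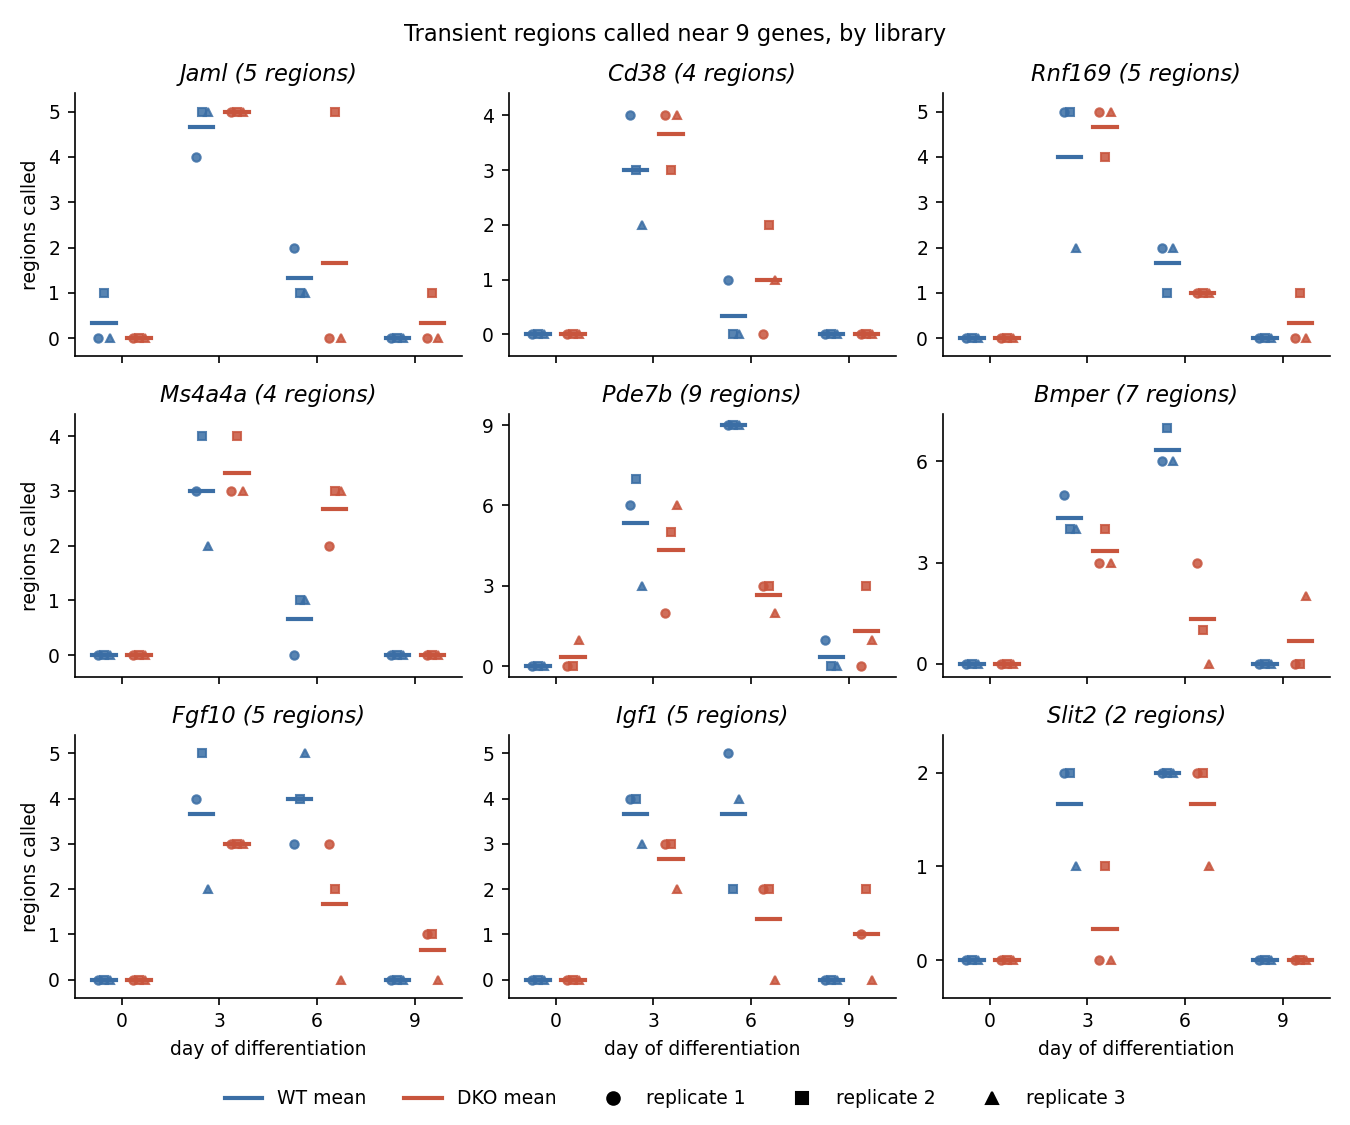
Number of transient regions called (vertical axis) near each of 9 genes in every library, by day (horizontal axis); points are libraries, their shape the replicate number, lines the means of WT (blue) and DKO (red), and the title gives the number of transient regions of the gene. Pde7b had 9 of 9 regions called in every WT library of day 6 and 2 to 3 in the DKO libraries, while Jaml and Cd38 had most calls at day 3 in both genotypes. The regions were chosen on calls at day 3 or day 6, so the day with most calls largely follows from the rule.

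Genes with day 6 members alone were another group. Arel1, a ubiquitin ligase, had 4 within 13.6 kb, called 3, 4 and 4 times in WT and 3, 4 and 0 times in DKO libraries at day 6. Dgat2, which makes triglycerides, had 2 within 20 kb upstream of its start, both in all WT lists of day 6, in 1 per DKO list, and in 0 of 6 lists of day 3. Fhl1, a LIM protein of muscle and other cells, had 2 inside the gene, called in all WT lists of day 6 and in DKO lists 2, 2 and 0 times. The others of the 15 genes with most day 6 members were Dapk1, Slit2, Ccdc71l, Kdm7a, Ahi1, Igf1, Lyzl1, Snap25 and Mup6. The others of the 15 with most day 3 members were Gm45716, Mrm3, Frmd4b, Cyp2d22, Tenm4, Xrn2 and Msn. Promoters among the day 6 members, named after their values were seen, included those of Adtrp, the oxygen-binding protein gene Mb, the glutamine transporter gene Slc1a5 and Hsd11b1, whose enzyme makes active glucocorticoid.

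Gene lists were described by how many of their genes were the nearest protein-coding gene, within 100 kb, of at least 1 member. Over all 21924 protein-coding genes, 275 (1.25%) had a day 3 member and 293 (1.34%) a day 6 member. List genes are rich in acetylated regions, so the share of members among the regions nearest to a list is given too, which over all genes was 1.26% at day 3 and 1.03% at day 6. Nearness does not show that a region acts on the gene.

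The hormone lists came first, since the medium changed between the days. Of 14 genes of the cAMP and CREB response, 4 had a day 3 member and 4 a day 6 member, and 7 of 94 regions of day 3 (7.45%) and 6 of 98 of day 6 (6.12%) nearest to them were members. Of these genes, 3 encode phosphodiesterases. Pde4b had 2 day 3 and 2 day 6 members with 1 shared, Pde4d had 2 day 3 members, and Pde10a had 2 day 3 members at its promoter and 1 day 6 member. Crem, a repressor of cAMP response genes, had a day 6 member in an intron (chr18:3269189-3269869), in 3 WT and 1 DKO lists. Rgs2, a regulator of G protein signalling that is also on the glucocorticoid list, had 2 day 6 members 54.9 and 55.6 kb downstream of its start, each in 2 WT and 2 DKO lists. Nr4a1, an early nuclear receptor of the cAMP response, had a day 3 member in its first introns (chr15:101270394-101271527), called in 3 WT and 2 DKO lists of day 3, and in 3 WT and 0 DKO lists of day 6.

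Of 20 glucocorticoid-induced genes, Klf9, Ddit4 and Glul had day 3 members and Fkbp5, Sgk1 and Rgs2 had day 6 members. Members were 4 of 139 nearest regions at day 3 (2.88%) and 4 of 178 at day 6 (2.25%). The Klf9 region (chr19:23125041-23125324), 16.1 kb upstream of this transcription factor gene, was called in 1 WT and 3 DKO lists of day 3 at a median fold of 6.16. The Fkbp5 region (chr17:28480286-28480733), in an intron of this chaperone gene, was called in 3 WT and 2 DKO lists of day 6 and in 1 DKO list of day 3. So the day 6 members beside this list were found after dexamethasone had been removed.

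The lists of adipocyte identity came next. Of 12 late adipogenic factors and coactivators, 0 had a day 3 member and 1 a day 6 member, in an intron of Pparg (chr6:115449541-115450047), the receptor that drives adipogenesis, called in 2 WT and 2 DKO lists at a median fold of 4.74. Members were 0 of 54 nearest regions at day 3 and 1 of 92 (1.09%) at day 6. Of 20 lipid and adipocyte genes, 0 had a day 3 member and 2 a day 6 member, Dgat2 and the lipid droplet gene Plin2. Here members were 0 of 32 nearest regions at day 3 and 3 of 106 (2.83%) at day 6. For either list at day 3, the share over all genes of 1.26% comes to less than 1 region. Of 13 early adipogenic factors, Klf5 (at its promoter) and Klf9 had a day 3 member (2 of 76 nearest regions, 2.63%) and Ebf1 a day 6 member (1 of 105, 0.952%). Of 11 brown adipocyte genes measured, Dio2, the enzyme that activates thyroid hormone, had a day 3 member (chr12:90694639-90695211, 3 WT and 2 DKO lists of day 3) and Cox8b a day 6 member (chr7:140908218-140908661, 3 WT and 1 DKO lists of day 6), which were 1 of 9 and 1 of 24 nearest regions. These lists held many other regions: 75% of the lipid genes at day 3 and 95% at day 6 were nearest to a region that was not a member.

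Of 13 genes of insulin and IGF signalling, the growth factor gene Igf1 had 3 day 3 and 2 day 6 members and Irs2 had 1 day 6 member, so members were 3 of 79 nearest regions at day 3 and 3 of 98 at day 6. The WT libraries called 4, 4 and 3 of the 5 Igf1 regions at day 3 and 5, 2 and 4 at day 6. The DKO libraries called 3, 3 and 2 at day 3 and 2, 2 and 0 at day 6. Single members were found for the progenitor gene Ly6a, the protease gene Mmp2 and the Wnt co-receptor gene Lrp6 at day 3 and for the collagen gene Col3a1 at day 6. They were 1 of 36 (2.78%), 1 of 105 (0.952%), 1 of 62 (1.61%) and 1 of 91 (1.10%) regions nearest to their lists. The cell cycle list (10 genes) and the TGF-β and BMP list (13 genes) had 0 members at either day, among 21 and 73 nearest regions at day 3 and 24 and 67 at day 6, where the shares over all genes of 1.26% and 1.03% come to about 1 region or fewer.

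Sequence motifs were searched on both strands within 100 bp of the summit, by exact letters in which N is any base. C/EBP (TTGCNNAA) was found in 43 day 3 members (8.65%, 95% Wilson interval 6.49 to 11.5) and 36 day 6 members (8.09%, 5.90 to 11), against 6.49% and 6.65% of the other regions and 7.39% of all merged regions. The Arl14ep window above holds one such match. AP-1 (TGANTCA) was found in 32 day 3 members (6.44%, 4.60 to 8.95) and 24 day 6 members (5.39%, 3.65 to 7.90), against 4.15% and 4.50% of the other regions and 5.69% of all merged regions. In distal regions alone the AP-1 shares were 6.33% of day 3 members and 5.14% of the others, and the C/EBP shares 8.86% and 7.07%. FOX (TGTTTAC) was found in 17 members of each set (3.42% and 3.82%), against 2.51% and 2.62%, and RUNX (TGTGGTT) in 4.72% of day 6 members against 3.52%. Distal regions alone gave smaller gaps for these: FOX 3.38% against 3.00% at day 3 and 3.98% against 3.25% at day 6. At day 6 the distal shares were 4.92% against 4.19% for RUNX, 5.62% against 5.33% for AP-1 and 8.20% against 7.16% for C/EBP. These intervals treat regions as independent, which neighbours are not, and cover counting error alone.

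The glucocorticoid receptor motif (GNACANNNTGTNC), found in few windows of any kind, was held by 3 day 3 members (0.604%) and 0 of 445 day 6 members, against 0.357% and 0.382% of the other regions. One of the 3 lay in an intron of Pde4d (chr13:108467251-108468004) and held AP-1 letters too. The PPAR:RXR motif (AGGNCANAGGNCA) was held by 4 day 3 members (0.805%) and 0 day 6 members, against 0.291% and 0.376%. At 445 windows a count of 0 goes with shares of up to 0.856% by the Wilson interval. KLF (GGGNGTGG) was less frequent in members (4.63% and 4.27%) than in the other regions (6.69% and 6.05%), which have a higher GC content. In distal regions alone its gaps were smaller, at 4.43% against 5.77% at day 3 and 4.22% against 5.12% at day 6. All merged regions held it in 5.54%. The other motifs, CREB (TGACGTNA), EBF (TCCCNNGGGA), TEAD (TGGAATG), STAT (TTCNNNGAA), NR4A (AAAGGTCA), ETS (CCGGAAGT), NFI (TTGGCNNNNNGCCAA), a C/EBP-ATF site (TTGCATCA) and the E-box (CACGTG), differed by at most 1.03 percentage points.

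**Figure D5:**
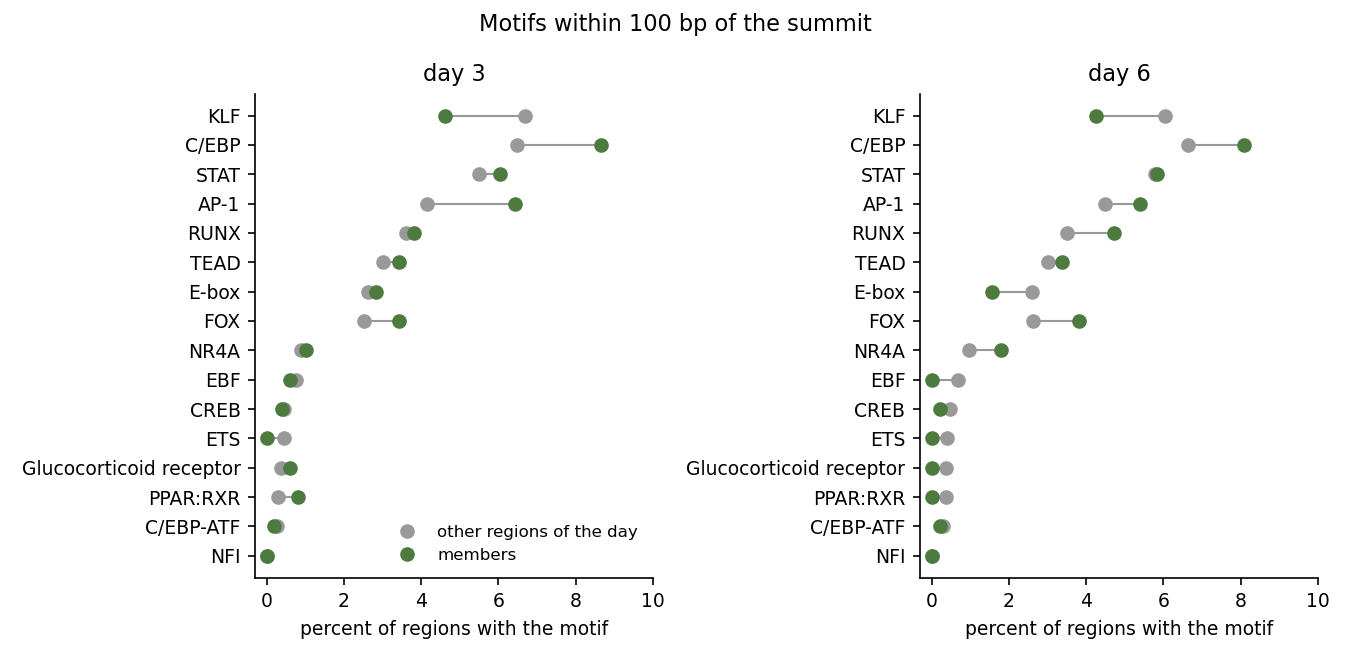
Percent of regions (horizontal axis) with each of 16 motifs (vertical axis) within 100 bp of the summit, for members (green) and other regions (grey) of day 3 and day 6. At day 3, AP-1 was found in 6.44% of the members against 4.15% of the other regions, and in distal regions alone in 6.33% against 5.14%.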

How the data were processed

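H3K27ac was profiled by ChIP-seq in 24 libraries (3 per genotype and day). Per the labels and the methods, 75-bp single reads were trimmed with cutadapt 1.18, aligned to mm10 with BWA and used by the authors to call narrow peaks per library with MACS2 2.1.1.20160309, without pooling. Each deposited list gives a ratio (fold enrichment at the summit), −log10 p, −log10 q and a display score, which was not used. Input libraries (16) were not analysed here.

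Peaks were merged at 1 bp. Summits were annotated with GENCODE M21 and GRCm38 (RefSeq sequence), whose chromosome lengths held every peak. Reads at the summit were solved from the fold and the Poisson p, and came out whole (within 0.001 of −log10 p) for 99.6% or more of the peaks in each list. The background per kb is the lowest background shared by 0.5% or more of the peaks in a list, divided by its narrowest peak, and ranks depth only. The lists do not hold the total of mapped reads.

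Calls of members at the day that did not choose them were compared between genotypes with exact permutation tests, two-sided, over 20 relabellings (smallest p 0.1). Tests had also been planned on calls and folds at the members' own day. These values chose the members, so they are given without a test. Regions named were the 10 members of each set with the highest median −log10 q, the 15 genes nearest to most members, and genes of 12 lists. Members, lists and tests were chosen with earlier results of these data known. Functions were tested on simulated data. Python 3.11.15, pandas 2.3.3, scipy 1.17.1, pysam 0.24.0 and samtools 1.23.1 were used.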

Additional observations from a re-analysis of the deposited data

How the results depend on the processing

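The number of day 3 members was 258 and of day 6 members 250 with the 20000 strongest peaks per list, 242 and 195 when no call was allowed at days 0 and 9, and 69 and 19 when all 6 lists of the day were required. Leaving out each replicate number gave 523 to 1085 day 3 and 578 to 972 day 6 members. Both sets stayed within 1.5 times their number with −log10 q of at least 5, with windows of 250 bp either side of the summit (407 and 346), and without DKO day 0 replicate 2 (520 and 463), WT day 3 replicate 3 (362 and 445) or DKO day 6 replicate 3 (497 and 410). The last of these, and as many peaks per list as the shortest list holds (607 and 606, which held 59 and 15 of the original members), were chosen after seeing the data.

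Of the genotype differences, 2 changed sign: the share of day 3 members called at day 3 was 0.455 points without replicate 1, and that relative to other regions was 0.302 without replicate 2. Leaving out a replicate number, these differences ranged from −23.7 to 0.455 and from −14.9 to 0.302. For the day 6 members the same settings gave −39.5 to −19.4 points. When all lists of the day were required the difference is fixed at 0 and was not computed. Day 3 members called at day 6 differed by −45.0 to −32.5 points when a replicate number was left out, where 2 against 2 libraries cannot give an exact permutation p below 0.333. Calls of same-numbered libraries did not deviate together (correlations from −0.0278 to 0.0505). Whether libraries of the same number were prepared together is not given, and these correlations cannot exclude it. With the replicate block, day 3 members called at day 6 differed by −36.6 points (exact sign-flip p 0.25, the smallest possible), and no call changed.

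The promoter share of day 3 and day 6 members was 6.98% and 16.4% with the 20000 strongest peaks, 2.90% and 0% with all lists required, and 7.44% and 9.44% with a promoter limit of 2 kb. With a gene limit of 20 kb, 9 of the 24 list counts moved by over 1.5 times, all downward. The weak signal of the members, with medians of 14.5 and 15 reads at the summit, limits all of these values.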
